A study of Rattus norvegicus with 6 samples.

Results

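The 6 conventional actin genes of the rat are the smooth muscle actins Acta2 and Actg2, the striated muscle actins Acta1 and Actc1, and the cytoplasmic actins Actb and Actg1. They were taken from the gene counts by their symbols. Of these 6 genes, 5 had a row among the 14475 genes of the table and no row carried the symbol Actc1. Genes were looked up by symbol throughout, and 1518 rows of the table have none, so a gene described as without a row had none under its symbol. The counts came from cultured vascular smooth muscle (VSM) cells of the SFA (soleus feed artery, which supplies the soleus muscle) of 3 young (4 months) and 3 old (24 months) male Fischer 344 rats. Polyadenylated RNA was sequenced as 1 stranded library per rat, so that 3 young and 3 old libraries were compared, with young as the reference. No treatment was applied before RNA extraction, and the values describe cells grown in serum, not the artery wall. A lower value in such bulk RNA cannot tell fewer cells of a type from less RNA per cell.

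Actin monomers polymerize into the filaments on which myosin pulls. Mature vascular smooth muscle uses the Acta2 product, smooth muscle α-actin, for most of its contractile filaments, while the Actg2 product is best known from visceral smooth muscle. Acta1 and Actc1 encode the α-actins of skeletal and cardiac muscle, and Actb and Actg1 encode β- and γ-actin, which nearly all cells use for their cortex, protrusions and stress fibers. Actin genes are classic targets of serum response factor, which binds the CArG box and is assisted by myocardin in smooth muscle and by the myocardin-related transcription factors when monomeric actin is used up. The proteins are nearly identical, and much of their difference lies in which cells make them and when.

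Total counts per library ranged from 44235674 to 59700887. For the abundant Acta2, Actb and Actg1 this makes the counting error of a level small beside the spread between libraries. Actg2 and Acta1 were less abundant, with 320 to 916 counts in the old libraries. Levels are given in CPM, the count of a gene relative to the size of its library, with library sizes scaled by the trimmed mean of M-values (TMM). Counts were not divided by transcript length, so levels and shares of different isoforms are shares of counts and not of transcripts. Of the smooth muscle markers searched for, 10 of 10 were in the table, and their summed level was 10173 to 16087 CPM in young and 4309 to 6343 CPM in old. Of 8 endothelial markers, Pecam1, Kdr, Vwf, Tek and Erg had a row and Cdh5, Tie1 and Emcn did not.

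The sequences before the start sites are shown because 4 of the 5 actin genes with a RefSeq promoter entry held a CArG box or a near match, the element through which the family is known to be controlled. Sequences are those of RefSeq on GRCr8, 5′ to 3′ on the gene's strand, and are not on the assembly used for counting. Capitals mark matches to the CArG box (a pair of C, 6 bases that are A or T, and a pair of G, with at most 1 of the 6 other than A or T) and to the M-CAT element (CATTCC or its reverse complement GGAATG), both searched on either strand.

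Acta2, chr1:241172504-241172753, minus strand: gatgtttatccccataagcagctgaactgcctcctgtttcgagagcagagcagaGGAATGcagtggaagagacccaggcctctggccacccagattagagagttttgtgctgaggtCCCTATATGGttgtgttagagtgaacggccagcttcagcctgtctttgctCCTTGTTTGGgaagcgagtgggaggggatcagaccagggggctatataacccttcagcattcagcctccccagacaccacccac
Acta1, chr19:68784195-68784444, minus strand: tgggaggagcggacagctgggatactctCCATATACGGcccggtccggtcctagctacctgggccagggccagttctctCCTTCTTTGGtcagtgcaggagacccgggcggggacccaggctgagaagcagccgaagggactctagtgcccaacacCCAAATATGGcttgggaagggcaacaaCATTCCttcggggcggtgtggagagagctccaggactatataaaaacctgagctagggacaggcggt
Actg1, chr10:106121007-106121066, minus strand: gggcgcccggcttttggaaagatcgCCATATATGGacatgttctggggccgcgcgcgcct

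The Acta2 sequence is the 250 bases before the start. It held near matches that began 134 and 84 bases before the start and an M-CAT element at 196. The Acta1 sequence, also of 250 bases, held near matches at 222 and 171, an exact CArG box at 94 and an M-CAT element at 67. The Actg1 stretch of 60 bases held an exact CArG box at 90. Actc1 held 3 near matches, at 126, 89 and 38. The searched 250 bases of Actg2 held none of these letters, but the RefSeq start used there lies 10340 bases inside the annotated gene. For comparison, an exact CArG box was present in 1.497% of 33469 promoter windows of the same length, an exact or near match in 8.08%, at least 2 of these in 0.693%, at least 3 in 0.0418%, and an M-CAT element in 12.1%. A match is a description of letters, and binding was not measured.

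**Figure D1:**
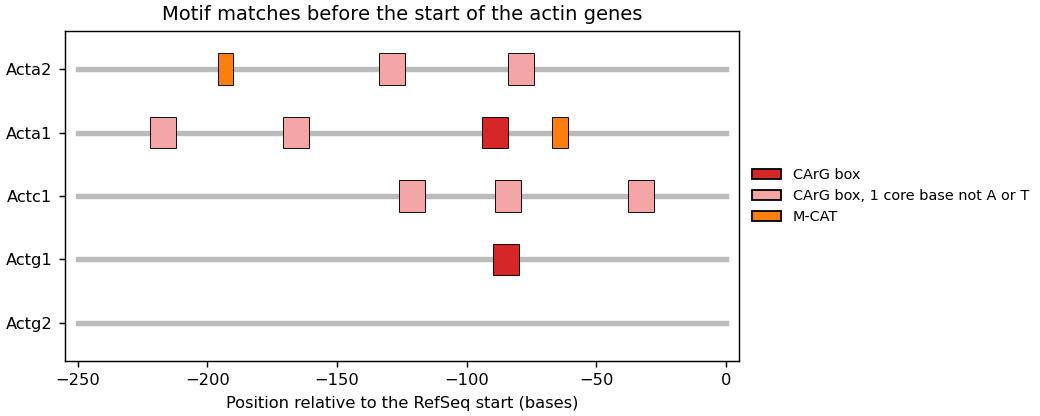
Positions of matches to the CArG box and the M-CAT element in the 250 bases before the RefSeq start, one row per actin gene, with the distance from the start in bases on the horizontal axis. Acta1 and Actc1 each carried 3 CArG-type matches, Acta2 carried 2, and Actg1 carried 1 exact box at 90 bases.

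Acta2 (ENSRNOG00000058039), the smooth muscle α-actin gene, had 4972, 7585 and 10381 CPM in young replicates 1, 2 and 3 and 2201, 1126 and 1422 CPM in old replicates 1, 2 and 3. All old libraries lay below all young libraries. The lowest young value was above the highest old value although the young libraries themselves differed 2.09-fold. Means were 7646 ± 2705 CPM in young and 1583 ± 556 CPM in old (SD, n = 3), 4.83-fold lower in old. The edgeR quasi-likelihood test gave a log2 fold change of -2.27 (SE 0.38) with an adjusted p of 0.0636, just past the threshold of 0.05. The DESeq2 Wald test on the same counts gave -2.28 with an adjusted p of 2.66e-08, and limma-voom gave -2.26 with an adjusted p of 0.0596. Among all genes of a library ordered by count, Acta2 stood between rank 7 and rank 13 in young and between rank 31 and rank 66 in old.

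Actg2 (ENSRNOG00000029401), the γ-actin of smooth muscle, had 52.4, 66.7 and 377 CPM in the young libraries and 11.1, 9.22 and 11.9 CPM in the old libraries. The groups did not overlap. Young replicate 3 stood apart, at 7.20 times the lowest young library, while the old libraries were close to each other. Means were 165 ± 184 CPM and 10.7 ± 1.38 CPM (SD, n = 3), 15.4-fold lower in old. The edgeR log2 fold change was -3.95 (SE 0.84) with an adjusted p of 0.0834, and DESeq2 gave -3.96 with an adjusted p of 0.000678. Without young replicate 3 the edgeR value was -2.47 (adjusted p 0.0767), so the size of this difference rested in large part on that library.

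Acta1 (ENSRNOG00000017786), the skeletal muscle α-actin gene, had 72.1, 140 and 256 CPM in the young libraries and 17.5, 17.6 and 5.97 CPM in the old libraries. All young libraries were above all old ones, and the same library, young replicate 3, was the highest in each of Acta2, Actg2 and Acta1. Means were 156 ± 92.8 CPM and 13.7 ± 6.69 CPM (SD, n = 3), 11.4-fold lower in old. edgeR gave a log2 fold change of -3.51 (SE 0.62) with an adjusted p of 0.0644, and DESeq2 gave -3.52 with an adjusted p of 1.45e-08.

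Because Acta1 is a skeletal muscle gene and the SFA lies beside skeletal muscle, 23 skeletal muscle markers were examined beside it. Of these, 10 had a row, and the defining genes Ckm, Mylpf, Myog, Myod1 and Pax7 had none. The summed level of those 10 markers was 111, 210 and 143 CPM in young and 29.2, 38.5 and 72.6 CPM in old, so it was also higher in every young library. The largest part in young was Myh1, a fast skeletal myosin heavy chain, at 58.9, 138 and 89.0 CPM in young and 5.93, 2.00 and 27.8 CPM in old. The order of the libraries differed between Acta1 and these markers. Old replicate 3 had the lowest Acta1 level of all libraries and the highest marker sum of the old ones, and young replicate 3 had the highest Acta1 level but not the highest marker sum. By direction, 7 of the 10 markers were lower and 3 higher in old, edgeR called 0 (2 lower and 1 higher at an unadjusted p under 0.05), and DESeq2 called 2 lower, Myh1 and Myh2. Of all genes in the table, 11.5% were lower and 11.2% higher at an unadjusted edgeR p under 0.05, and of those with a DESeq2 adjusted p, 3.38% were called lower and 2.3% higher. Myh1 had an edgeR log2 fold change of -2.997 (adjusted p 0.152), Myh2 -3.11 (adjusted p 0.136), and Tnnt3 0.92 (adjusted p 0.216). Myom1, a sarcomeric gene outside the list, averaged 5.77 CPM in young and 0.477 CPM in old. Its pattern over the libraries was the nearest to that of Acta1 among 11431 genes compared, closely followed by the forkhead factor Foxs1. Myom1 was picked from these same data for that likeness, so it is not independent evidence of skeletal muscle cells. The part of skeletal muscle cells in the Acta1 difference was not tested. Of 8 cardiac markers, 3 had a row, with a summed level of 2.20 to 2.96 CPM in young and 1.17 to 1.47 CPM in old. All 3 were nominally lower in old, edgeR called 0 (2 at an unadjusted p under 0.05) and DESeq2 called 2, Myl4 and Tnnt2. Myl4, an atrial myosin light chain and the one of these above 1 CPM, had a log2 fold change of -1.01 (edgeR adjusted p 0.144, DESeq2 adjusted p 0.0377).

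**Figure D2:**
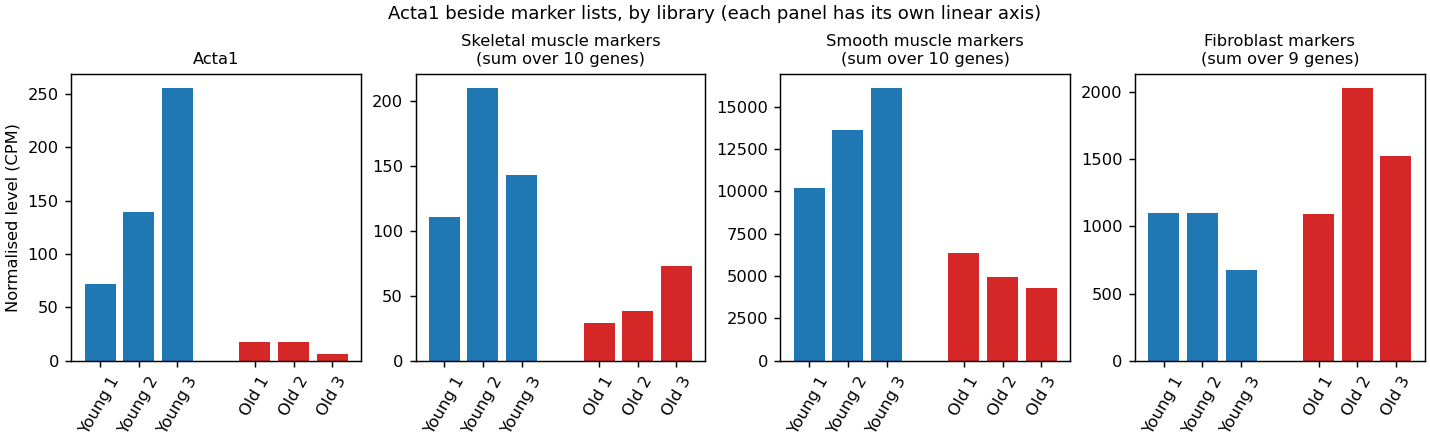
Normalized level in CPM of Acta1 and the summed CPM of the skeletal muscle, smooth muscle and fibroblast markers in each library (bars), on a linear axis that differs between panels. Acta1 ranged from 72.1 to 256 CPM in young and from 5.97 to 17.6 CPM in old. The skeletal marker sum was also higher in every young library than in every old one, and most of it in young was Myh1 and Myh2. Old replicate 3 had the lowest Acta1 value and the highest skeletal marker sum of the old libraries.

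Actb (ENSRNOG00000034254), the cytoplasmic β-actin gene and a common reference gene, had 8103, 7989 and 9332 CPM in young and 6631, 4157 and 3699 CPM in old. No old library reached a young one. The young libraries were close to each other (coefficient of variation 8.79%) and the old ones spread more (32.7%), with old replicate 1 nearest to young. Means were 8475 ± 745 CPM and 4829 ± 1577 CPM (SD, n = 3), 1.75-fold lower in old, with an edgeR log2 fold change of -0.81 (SE 0.28, adjusted p 0.169). DESeq2 gave -0.82 with an adjusted p of 0.0184, which did not reach the limit of 1 on the absolute log2 fold change.

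Actg1 (ENSRNOG00000036701), the cytoplasmic γ-actin gene, had 1663, 1568 and 1591 CPM in young and 1420, 855 and 826 CPM in old. The groups did not overlap, and the young values varied by 3.11% against 32.4% in old. Old replicate 1 was again the old library nearest to young. Means were 1607 ± 50.05 CPM and 1033 ± 335 CPM (SD, n = 3), 1.56-fold lower in old, with an edgeR log2 fold change of -0.64 (SE 0.24, adjusted p 0.189) and a DESeq2 value of -0.64 (adjusted p 0.0676). RefSeq names 10 pseudogenes of Actb and 11 of Actg1, against 3 of Acta1 and none of Acta2 or Actg2, and no row carried the symbol of any of them. How reads shared between such copies or between the actin genes were counted was not tested.

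**Figure D3:**
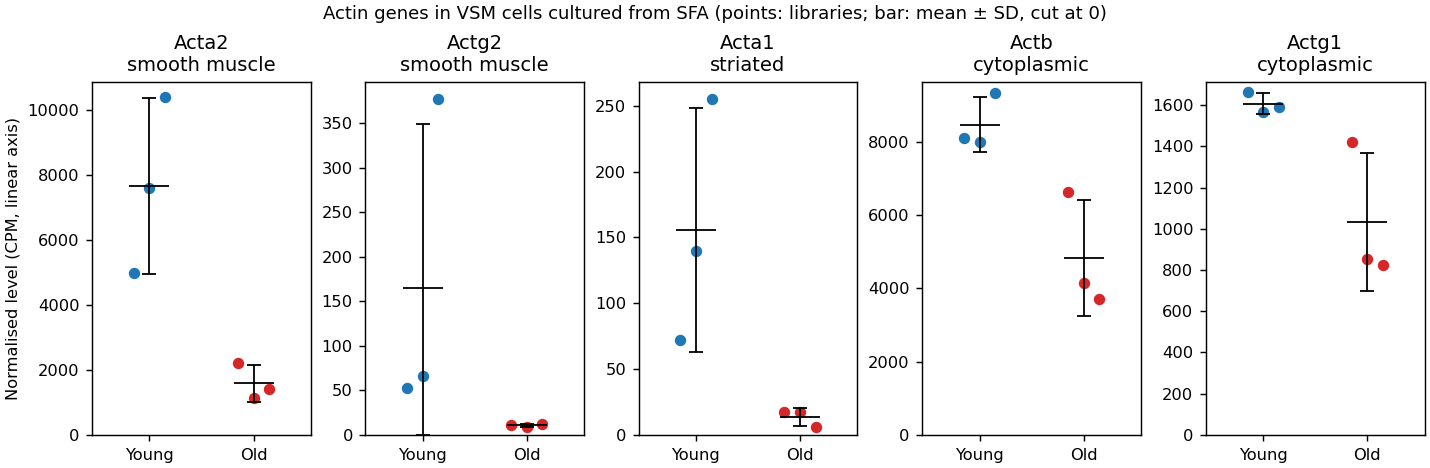
Normalized level in CPM of the 5 actin genes by age group, each panel on its own linear axis from 0, with a point per library and a bar for the mean ± SD of 3 libraries (cut at 0). In each panel the 3 old points lie below the 3 young points; young replicate 3 lies far above the others in Actg2.

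The counts of calls differed between tests. With edgeR, 0 of the 5 genes were called lower in old, a call being an adjusted p below 0.05 with at least 1 of change on the log2 scale, where 0.00691% of all 14475 genes were called lower (a single gene) and 0 higher. At an unadjusted edgeR p under 0.05, 5 of 5 were lower in old, against 11.5% of all genes, and limma-voom likewise gave 0 calls and 5 of 5 at an unadjusted p under 0.05. DESeq2 called 3 of 5 lower, namely Acta2, Actg2 and Acta1, against 3.38% of the 14183 genes that received an adjusted p. All 5 genes were lower in every old library than in every young library, against 14.7% of all genes. Across all genes the median log2 fold change was 0.02 and 48.0% were lower in old, whereas 5 of 5 actin genes were.

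Leaving out old replicate 1 changed the edgeR calls, and leaving out any other single library did not. Without it, edgeR called 3 of 5 lower, against 3.47% of all genes. These were Acta2 at -2.59 (adjusted p 0.0299), Acta1 at -3.72 (adjusted p 0.04995) and Actb at -1.11 (adjusted p 0.0330). Actg1 had -0.94 (adjusted p 0.0278), within the p threshold but short of the fold limit, and Actg2 had -3.97 (adjusted p 0.0812). Old replicate 1 had the highest Acta2, Actb and Actg1 levels of the old libraries, so leaving it out lowers the old means of these genes. It also had the lowest summed level of 9 fibroblast markers among the old libraries. The part of those markers in the calls was not tested.

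**Figure D4:**
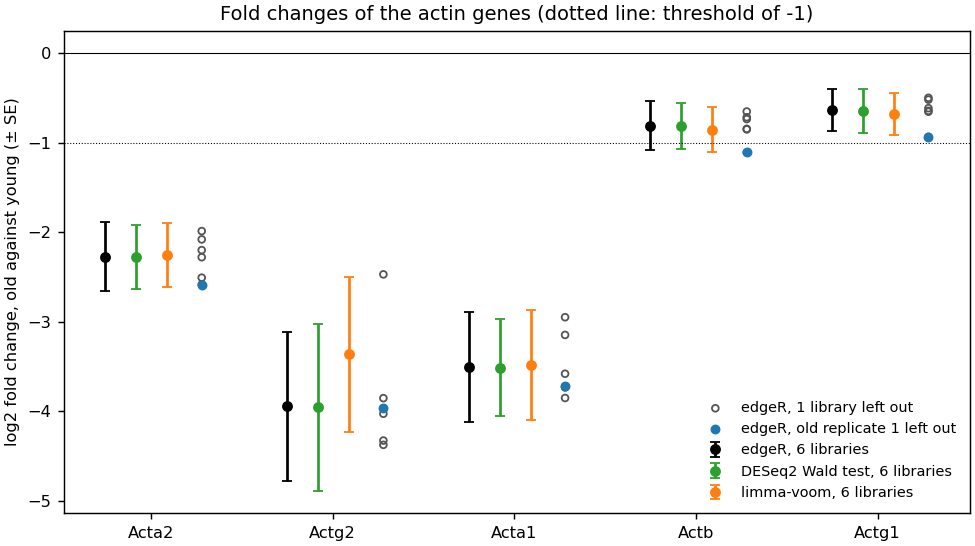
Log2 fold change of old against young for the 5 actin genes, from edgeR, DESeq2 and limma-voom with all 6 libraries (error bars, SE) and from edgeR with 1 library left out (open points; filled blue, without old replicate 1). The values run from -0.64 for Actg1 to -3.95 for Actg2 in edgeR with all 6 libraries, and the dotted line marks the limit of -1, which Acta2, Actg2 and Acta1 pass.

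Summed, the 5 genes had 14863, 17347 and 21937 CPM in young and 10280, 6164 and 5964 CPM in old. The groups did not overlap, and old replicate 1 held the highest old value. Means were 18049 ± 3589 CPM and 7470 ± 2436 CPM (SD, n = 3). The difference of the means of log2 values was -1.30, a 2.46-fold lower geometric mean in old (two-sided exact permutation p = 0.1, the smallest p that 3 against 3 libraries allow). In unscaled counts, actin took 1.52%, 1.75% and 2.10% of all counts in young and 1.02%, 0.638% and 0.591% in old. Of the difference of 10579 CPM between the means, Acta2 made up 57.3% and Actb 34.5%, with 5.42% from Actg1, 1.46% from Actg2 and 1.34% from Acta1.

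The make-up of the actin counts also differed between the ages. Acta2 took 33.5%, 43.7% and 47.3% of the summed actin counts in young and 21.4%, 18.3% and 23.8% in old, or 41.5 ± 7.20% against 21.2 ± 2.80% (SD, n = 3). The highest old share was below the lowest young share. Actb took the largest share of counts in each old library, at 64.5%, 67.4% and 62.0%, against 54.5%, 46.1% and 42.5% in young. In young replicate 3 Acta2 counts exceeded Actb counts, which they did in no other library. Actg1 took 11.2%, 9.04% and 7.25% in young and 13.8%, 13.9% and 13.8% in old, a share that varied by 0.0295 percentage points (SD) between the old libraries although the Actg1 level itself varied by 32.4%.

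The minor isoforms kept small shares. Actg2 took 0.352%, 0.384% and 1.72% in young and 0.108%, 0.149% and 0.1999% in old. Acta1 took 0.485%, 0.805% and 1.16% in young and 0.170%, 0.286% and 0.1001% in old. Neither share overlapped between the ages. The difference in the Actg2 share was -0.667 percentage points, and -0.216 without young replicate 3. Summed by class, the smooth muscle actins took 42.3 ± 7.78% in young and 21.3 ± 2.82% in old, a difference of -21.0 percentage points, and the cytoplasmic actins took 56.9 ± 8.11% and 78.5 ± 2.73% (SD, n = 3). Each of the 8 shares tested (5 genes and 3 classes, of which the striated class was Acta1 alone) gave a two-sided exact permutation p of 0.1, also after adjustment over the 8, so the design could not reach 0.05. The widest 95% Wilson interval of a share was ± 0.168 percentage points, which covers counting error only. Such intervals would be too narrow if both mates of a fragment were counted, and total counts exceeded the sequencing depth that the paper gives. Shares of a sum move together, since a lower Acta2 share leaves more for the rest. In CPM, Actb and Actg1 had lower means in old although their shares were higher. With Acta2 left out of the sum, the Actb share differed between the ages by 0.499 percentage points in place of 16.9 (two-sided exact permutation p = 0.4), and the Actg1 share by 2.02 in place of 4.68 (p = 0.1 in the same exact test).

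**Figure D5:**
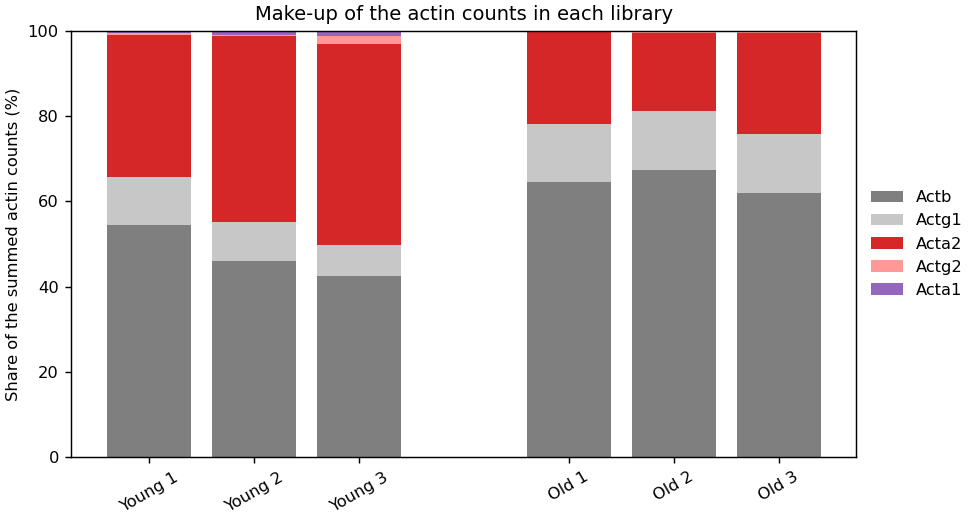
Share of each isoform in the summed actin counts of each library, stacked to 100%. Acta2 takes 33.5% to 47.3% in the young libraries and 18.3% to 23.8% in the old ones, and Actb takes 42.5% to 54.5% and 62.0% to 67.4%.

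Ratios within a library do not depend on library scaling. Acta2 to Actb was 0.614, 0.949 and 1.11 in young and 0.332, 0.271 and 0.384 in old, a log2 difference of -1.41. The groups did not overlap. Actg2 to Acta2 was 0.0105, 0.00879 and 0.0363 in young and 0.00502, 0.00819 and 0.00838 in old, a log2 difference of -1.10, and of -0.46 without young replicate 3. Here the lowest young and the highest old ratio were close. Actb to Actg1 was 4.87, 5.10 and 5.87 in young and 4.67, 4.86 and 4.48 in old, a log2 difference of -0.17, and of -0.09 without young replicate 3. The lowest young and the highest old ratio, 4.87 and 4.86, nearly met. Each of the 3 ratios gave a two-sided exact permutation p of 0.1 (0.1 after adjustment over the 3). The ratio of Acta1 to Acta2, added after its values were seen and not tested, was 0.0145, 0.0184 and 0.0246 in young and 0.00795, 0.0157 and 0.00420 in old, which overlap.

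Among the actin genes, the cytoplasmic pair had the most similar patterns over the 6 libraries. After subtracting each gene's mean of log2 CPM, Actb and Actg1 differed by a root mean square of 0.123, whereas Acta2 differed from Actb by 0.764, from Acta1 by 0.845, from Actg1 by 0.864 and from Actg2 by 0.877. Among 11431 genes with a symbol and an average of at least 1 CPM, the genes nearest to Acta2 were Irag1 (0.183), which encodes a cGMP kinase substrate that restrains calcium release, Adgrg6 (0.195), an adhesion receptor, and Trim36 (0.204), a ubiquitin ligase. Nearest to Actg2 were Sox11 (0.395), a transcription factor, Ankrd1 (0.478), a muscle ankyrin repeat protein, and Il1rl1 (0.510), the interleukin-33 receptor. Nearest to Acta1 were Myom1 (0.368), a protein of the sarcomeric M-band, Foxs1 (0.371), a forkhead factor, and Mcam (0.410), a cell adhesion molecule. Nearest to Actb were Msn (0.0652), which encodes moesin, a linker of actin filaments to the membrane, C1h19orf33 (0.0788) and the checkpoint kinase Chek1 (0.0806). Nearest to Actg1 were Chst10 (0.0537), a sulfotransferase, Acot7 (0.0605), an acyl-CoA thioesterase, and Urb2 (0.0666), a ribosome biogenesis factor. The genes listed for Actb and for Actg1 lay nearer to them than the 2 lay to each other. These distances are descriptions over 6 libraries that fall into 2 ages. They are not scaled by the size of a difference, so genes with like fold changes lie close.

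Proteins that bind actin monomers or turn filaments over were examined as the partners of the actin genes. All 13 had a row. Their median log2 fold change was -0.44, and 11 had lower and 2 higher levels in old. edgeR called 0 of them, 7 were lower and 0 higher at an unadjusted p under 0.05 (11.5% and 11.2% of all genes), and DESeq2 called 1 lower (3.38% of all genes with an adjusted p). That gene was Cfl2, the muscle cofilin that severs filaments, with 316, 311 and 374 CPM in young and 203, 147 and 136 CPM in old (log2 fold change -1.04, SE 0.18, edgeR adjusted p 0.0636, DESeq2 adjusted p 2.20e-05). Dstn, which encodes destrin, a relative of cofilin, had -0.97 (edgeR adjusted p 0.105), and Tmsb4x, the monomer-sequestering thymosin β, had -0.91 (edgeR adjusted p 0.125). Their groups did not overlap either.

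Among factors that start or extend filaments, 16 of 17 had a row, 14 of them lower and 2 higher in old (median log2 fold change -0.28). edgeR called 0, with 3 lower and 1 higher at an unadjusted p under 0.05, where 11.5% and 11.2% of all genes were. DESeq2 called 1 lower, against 3.38% of all genes, the formin Diaph3, which had 133, 112 and 185 CPM in young and 96.3, 33.1 and 19.4 CPM in old (log2 fold change -1.53, edgeR adjusted p 0.199, DESeq2 adjusted p 0.0439). Cobl, a nucleator, had -1.04 (edgeR adjusted p 0.256) and Enah, an elongation factor, had -0.80 (edgeR adjusted p 0.178).

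Actin folding depends on the chaperonin TRiC and on prefoldin. Of 18 folding and maturation genes 15 had a row, 13 of them lower and 2 higher in old (median -0.15), and both edgeR and DESeq2 called 0, with 4 lower and 0 higher at an unadjusted edgeR p under 0.05 (11.5% and 11.2% of all genes). The largest differences were small, at -0.61 for Tcp1, -0.51 for the phosducin-like cofactor Pdcl3 and -0.48 for Cct6a, with edgeR adjusted p values of 0.195, 0.146 and 0.208. Of 20 actin-related and actin-like genes 12 had a row, 8 of them lower and 4 higher (median -0.11). Both tests called 0, with 2 lower and 0 higher at an unadjusted edgeR p under 0.05, again against 11.5% and 11.2%. Actr2 and Actr3, subunits of the Arp2/3 nucleating complex, had -0.58 and -0.41, and Actr1a, of the dynactin complex, had -0.29, with edgeR adjusted p values of 0.149, 0.271 and 0.162.

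All 14 transcription factors examined as regulators of actin genes had a row. Their median log2 fold change was -0.40, with 10 lower and 4 higher in old. edgeR called 0, with 7 lower and 1 higher at an unadjusted p under 0.05, against 11.5% and 11.2% of all genes. DESeq2 called 1 lower and 1 higher, against 3.38% and 2.3%. The lower one was Myocd, which encodes myocardin, with 30.2, 41.5 and 110 CPM in young and 9.25, 3.08 and 9.33 CPM in old (log2 fold change -3.07, SE 0.65, edgeR adjusted p 0.0823, DESeq2 adjusted p 7.18e-06). Young replicate 3 was highest in Myocd, as it was in Acta2, Actg2, Acta1, Actb and Srf. Among the old libraries, old replicate 3 was highest in Myocd and Actg2 and lowest in Acta1. The higher one was Klf4, a factor known for repressing smooth muscle genes, with 60.3, 58.9 and 40.4 CPM in young and 114, 124 and 136 CPM in old (log2 fold change 1.23, SE 0.17, edgeR adjusted p 0.0545, DESeq2 adjusted p 1.51e-07). Young replicate 3 was lowest in Klf4. Srf itself had 67.4, 69.9 and 87.4 CPM in young and 53.1, 30.4 and 30.4 CPM in old, without overlap (log2 fold change -0.98, edgeR adjusted p 0.111). The part of these factors in the actin differences was not tested.

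The other smooth muscle markers had the sign of Acta2. The median of their log2 fold changes was -1.59 and all 10 were negative; edgeR called 0, with 9 at an unadjusted p under 0.05 (11.5% of all genes), and DESeq2 called 6 (3.38%). Myh11, the smooth muscle myosin heavy chain, had 615, 1163 and 1615 CPM in young and 77.9, 229 and 95.4 CPM in old (log2 fold change -3.08, edgeR adjusted p 0.0648), and Cnn1, calponin, had -2.56 (edgeR adjusted p 0.0561). Several of these genes were already known to differ in these libraries when the list was chosen. Their count is therefore not independent evidence of direction.

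Markers of other cell types were read beside the actin levels. All 9 fibroblast markers had a row. Levels of 8 were higher and of 1 lower in old, edgeR called 0 (4 higher at an unadjusted p under 0.05, against 11.2% of all genes) and DESeq2 called 2 higher (against 2.3%). Their summed level was 1098, 1098 and 680 CPM in young and 1092, 2030 and 1526 CPM in old. Old replicates 2 and 3 had the higher sums and lower Acta2, Actb and Actg1 levels than old replicate 1. Young replicate 3, which had the highest Acta2, had the lowest sum. Young replicates 1 and 2 and old replicate 1 had nearly equal sums at Acta2 levels of 4972, 7585 and 2201 CPM. Mfap5, the marker with the highest mean level, was the 1 lower in old, with means of 607 CPM in young and 544 CPM in old. Its levels were 595, 738 and 486 CPM in young and 494, 549 and 588 CPM in old. It was the largest part of each young sum, and the near equality of the sums rested on it. With Mfap5 left out, the sum was higher in each old library than in each young one. Dcn, the proteoglycan decorin, had 19.9, 1.16 and 2.28 CPM in young and 26.0, 411 and 119 CPM in old (log2 fold change 4.58, edgeR adjusted p 0.156). Clec3b had 3.15 (edgeR adjusted p 0.0531) and Lum, lumican, had 2.02 (edgeR adjusted p 0.291). Their part in the actin differences was not tested.

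Endothelial markers were at 10.9 to 17.1 CPM in young and 13.6 to 20.0 CPM in old in sum, with 5 of 8 in the table. Of these, 2 were lower and 3 higher, edgeR called 0 (1 lower at an unadjusted p under 0.05, against 11.5% of all genes) and DESeq2 called 1 lower (against 3.38%), Erg, at -2.03 (edgeR adjusted p 0.159), while Tek had 0.77 (edgeR adjusted p 0.404). Macrophage markers summed to 0.407 to 2.90 CPM in young and 1.57 to 2.90 CPM in old with 2 of 7 in the table. Both were nominally higher with 0 calls by either test and 0 at an unadjusted p under 0.05. Schwann cell markers summed to 12.4 to 75.0 CPM in young and 54.1 to 85.2 CPM in old with 2 of 4 in the table, both nominally higher, 1 at an unadjusted edgeR p under 0.05 (11.2% of all genes higher) and 0 called by either test.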

How the data were processed

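The authors deposited raw counts per gene and library as whole numbers, without normalization. Per their methods, reads were trimmed, aligned with STAR to the rat assembly Rnor_6.0 and counted with featureCounts, and the submitters' processing notes name STAR 2.7.10b, Subread 2.0.8, cutadapt 3.5 and DESeq2 1.46.0. The strand and multi-mapping settings, which decide how reads shared by near-identical actin copies were counted, were not given in the sources used here. All rows reach 10 counts in 3 libraries or more, so a gene below that is left out. Even numbers made up 68.7% to 71.1% of the low counts (1 to 19), a pattern that counting both mates would leave. The total counts of each library also exceeded the reads per sample that the paper gives, which counting both mates could leave too. The mate setting was not given. The methods name a RefSeq annotation of that assembly, whereas the rows carry Ensembl identifiers, so the gene models behind each actin row are uncertain. Of the rows, 1518 had no symbol.

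Counts of all 14475 genes were tested with edgeR 4.0.16 under R 4.3.3 (TMM scaling, quasi-likelihood test, Benjamini-Hochberg adjustment, no covariates), and with DESeq2 1.42.0 and limma-voom (limma 3.58.1) as alternatives. A call required an adjusted p below 0.05 with at least 1 of change on the log2 scale. SE was the size of the log2 fold change over the square root of F. Shares, ratios and sums were tested with two-sided exact permutation tests over libraries (scipy 1.17.1). Patterns used log2 CPM with a prior count of 2. RefSeq promoters (GRCr8) matched 5 of the 6 genes, with no entry used for Actb. The methods were tested on simulated counts.

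The actin genes and the marker and pathway lists were chosen with earlier results of these data known. Beside the actin genes, the text names the 3 genes per list with the largest absolute log2 fold change among those averaging at least 1 CPM, and the 3 nearest patterns per actin gene. List genes named only as having or not having a row follow no such rule, nor do Tnnt2 and Mfap5. The smallest chi-square per gene between libraries of one group was 67.1, so no library appears to have been deposited more than once. All libraries come from separate rats per the methods.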

Additional observations from a re-analysis of the deposited data

How the results depend on the processing

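Across 17 results and 209 alternative values, 0 reversed direction and 0 lost a call, since edgeR with all libraries made none. The young and old libraries did not overlap in these measures, so leaving 1 library out could not reverse a difference of group means. The count of 5 genes without overlap could not fall either, so the leave-one-out values are no test of direction. The settings were RLE size factors, library size only, actin genes left out of the scaling, a filter at 1 CPM, halved counts, a pseudocount of 1, limma-voom, DESeq2, a replicate block and each library left out in turn. DESeq2 gave log2 fold changes of -2.28 for Acta2, -3.96 for Actg2 and -3.52 for Acta1 and called 3 genes. Its leave-one-out fits and a share of Acta2 without the minor isoforms were added after the data had been seen. With each library left out in turn, over edgeR and DESeq2, log2 fold changes lay between -2.59 and -1.99 for Acta2, -4.39 and -2.47 for Actg2, -3.86 and -2.95 for Acta1, and -1.12 and -0.65 for Actb, and the number of called actin genes between 0 and 4. The 4 came from DESeq2 without old replicate 1; the other DESeq2 fits called 3 each. In edgeR, 3 were called without old replicate 1 and 0 in each other case, and Actg1 ranged from -0.94 to -0.50. The smooth muscle share differed by -25.3 to -17.6 percentage points.

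Over all genes, edgeR called 1 lower and 0 higher, DESeq2 479 and 326, limma-voom 0 and 0, edgeR without old replicate 1 503 and 229, and edgeR without young replicate 1 4 and 1. The cause was not tested.

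With the replicate number as a block, edgeR called 0 actin genes, with -2.28 for Acta2 (adjusted p 0.108), -3.33 for Actg2 (0.107), -3.42 for Acta1 (0.119), -0.86 for Actb (0.192) and -0.68 for Actg1 (0.164). Over all genes it called 0 lower and 1 higher. Same-numbered libraries correlated in their deviations from the group means at 0.063, 0.322 and 0.313 over 12257 genes. Differently numbered libraries ran from -0.455 to 0.354. Young replicates 2 and 3 each correlated best with the old library of their own number, and young replicate 1 with old replicate 2 (0.354). The labels give no pairing, so the main fit left the numbers out. Whether same-numbered libraries share a replicate effect was not settled.

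With 3 libraries per age, exact tests could not go below 0.1. Shares per transcript length were not run, as no transcript lengths were at hand, and the ratio of Acta1 to Actc1 was not run, as no row carried the symbol Actc1. Reads that fit several actin genes or pseudogenes make single-isoform levels less certain than their counts imply.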
